A study of Rattus norvegicus with 2 samples.

Results

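Autophagy is the process by which a cell encloses part of its own cytoplasm in a double membrane, the autophagosome, and delivers it to the lysosome for breakdown. The autophagy machinery was taken as the genes whose symbol begins with Atg, Gabarap, Map1lc3, Ulk or Wipi and a family number or letter, together with 15 further genes chosen by name for their known part in the pathway (such as Becn1, Pik3c3, Sqstm1 and Nbr1). This gave 38 genes of the 15037 named genes on the array. The rule uses gene names only. Pik3r4, Vmp1 and Epg5 were on the list by name, and Atg2b, Atg4b, Gabarapl4 and Ulk4 are annotated rat genes that the naming pattern fits; these 7 had no named probe and were not analysed here. Each of the 38 genes had 1 probe set.

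RNA came from cultured newborn rat epidermal keratinocytes, the cells that form the outer layer of the skin, grown with 10% serum and 0.4 µg/mL hydrocortisone. The control group was 1 culture labelled non-treated (NC+VC) and the knockdown group 1 culture transfected with siRNAs against Tet2 and Tet3 at 1 µM each (siTet2/3+VC). Both received vitamin C for 12 h, beginning 24 h after transfection, so nothing here measures the effect of vitamin C. TET enzymes oxidise methylated cytosine and need vitamin C for full activity; whether the control received another siRNA is not stated in the labels, and Tet2 and Tet3 had no named probe, so the knockdown itself was not analysed here. A single array stood for each group, so no test could be made: "higher" and "lower" describe these 2 arrays, and the number of arrays limits the precision of every value. In bulk RNA, a change in the share of cells of a given state cannot be told apart from a change in RNA per cell.

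The pathway runs in steps. The ULK kinase complex starts it when nutrients are short, and the class III PI3-kinase complex then marks the growing membrane with the lipid PI3P. Atg9 vesicles, Atg2 and the WIPI proteins bring membrane lipid; a pair of ubiquitin-like conjugation reactions attaches proteins of the Atg8 family (LC3 and GABARAP) to the membrane; cargo receptors tie the load to Atg8; and tethers join the finished vesicle to the lysosome. In the epidermis, autophagy is active in the granular layer, where keratinocytes lose their organelles as they cornify.

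The values are deposited log2 signals, and a difference is the siTet2/3 value minus the control value. A gene was tested, meaning compared and counted, where the mean of its 2 values passed a background floor of 5.04 log2 units, set from 1206 chemoreceptor genes. The floor was passed by 7780 genes in all and 35 of the 38 autophagy genes. A filter on the mean treats both arrays alike. The 3 that did not pass were Map1lc3a (4.28 and 4.88 log2 units on the control and siTet2/3 arrays), Atg4c (4.84 and 4.85) and Atg16l2 (3.33 and 3.41). A gene was called where its difference was at least 1.5-fold. The culture carried the markers of its label: all 9 keratinocyte markers with a named probe were above the floor, among them Krt14, Tp63 and Itga6, against 1 of 10 fibroblast, 1 of 6 melanocyte, 2 of 7 immune, 1 of 6 endothelial and 1 of 4 Merkel and nerve markers. Col1a1, Ptprc and Pecam1 were below the floor on both arrays. The endothelial marker Tek (9.66 and 9.25 log2 units) and the immune marker Cd14 (9.31 and 8.55) were above a stricter floor. This was 8.31 log2 units, the 95th percentile of negative-control probes. Krt1 and Epcam were under it on both arrays, and the other keratinocyte markers were above it. Of all these markers, the basal keratin gene Krt15 was 5.59-fold higher, Epcam 1.78-fold higher and Cd14 1.69-fold lower; their part in the results below was not tested.

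Of the 35 tested autophagy genes, 5 were lower on the siTet2/3 array (Atg9b, Map1lc3b, Nbr1, Atg12 and Atg16l1), 4 were higher (Ambra1, Atg14, Ulk2 and Pik3c3) and 26 were neither. Among all tested genes 12.7% were lower and 7.53% higher, or 20.2% in either direction, so the share of autophagy genes called was near that of the array as a whole (14.3% lower and 11.4% higher). The counts of each group and list below are to be read beside the 12.7% and 7.53% of all tested genes. The median difference of the 35 genes was -0.05, against -0.06 over all tested genes, and the median of all 38 without the floor was -0.02. The median of the group thus lay close to that of the whole array, while single genes lay on both sides of it.

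TET enzymes act on the cytosine of CG dinucleotides, so the CG content of the promoters is shown for some of the genes past 1.5-fold. The RefSeq promoter table (build GRCr8) held 34 of the 38 genes. Each sequence below is the 250 bases before the annotated start, 5′ to 3′ on the gene's strand, with every CG in capitals. Atg9b, Map1lc3b and Nbr1 had the largest differences downward. Ambra1 and Ulk2 were higher and hold the fewest and the most CG among the genes that were higher. They lie at chr4:11678298-11678547 (plus strand, Atg9b, 6 CG), chr19:66574345-66574594 (plus, Map1lc3b, 24 CG), chr10:86978299-86978548 (plus, Nbr1, 11 CG), chr3:98156376-98156625 (plus, Ambra1, 8 CG) and chr10:47029845-47030094 (minus, Ulk2, 34 CG).
Atg9b: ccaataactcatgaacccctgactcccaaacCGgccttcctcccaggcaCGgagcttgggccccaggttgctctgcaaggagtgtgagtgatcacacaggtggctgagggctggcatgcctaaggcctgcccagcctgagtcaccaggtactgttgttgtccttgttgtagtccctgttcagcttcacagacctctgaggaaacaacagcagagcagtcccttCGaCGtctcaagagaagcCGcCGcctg
Map1lc3b: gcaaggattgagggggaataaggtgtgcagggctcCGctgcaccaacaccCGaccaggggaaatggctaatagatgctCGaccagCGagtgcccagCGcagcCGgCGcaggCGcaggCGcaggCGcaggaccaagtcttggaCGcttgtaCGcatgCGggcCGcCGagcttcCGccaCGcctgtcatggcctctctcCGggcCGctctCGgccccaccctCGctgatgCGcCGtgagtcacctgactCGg
Nbr1: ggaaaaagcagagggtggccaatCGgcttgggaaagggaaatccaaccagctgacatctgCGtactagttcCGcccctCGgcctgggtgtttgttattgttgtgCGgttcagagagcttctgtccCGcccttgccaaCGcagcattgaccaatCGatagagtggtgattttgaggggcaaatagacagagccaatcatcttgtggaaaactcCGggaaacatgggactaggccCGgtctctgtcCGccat
Ambra1: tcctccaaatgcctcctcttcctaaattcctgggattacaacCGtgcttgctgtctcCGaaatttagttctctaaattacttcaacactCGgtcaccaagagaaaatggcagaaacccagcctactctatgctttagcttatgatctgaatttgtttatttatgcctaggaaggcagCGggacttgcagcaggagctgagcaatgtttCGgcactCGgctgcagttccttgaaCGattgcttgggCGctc
Ulk2: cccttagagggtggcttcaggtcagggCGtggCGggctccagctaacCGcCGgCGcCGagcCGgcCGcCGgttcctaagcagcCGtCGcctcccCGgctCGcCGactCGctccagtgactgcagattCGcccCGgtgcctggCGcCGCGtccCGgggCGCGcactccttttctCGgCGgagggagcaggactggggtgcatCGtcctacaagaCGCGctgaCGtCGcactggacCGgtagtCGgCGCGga

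The capitals are dense through the Ulk2 and Map1lc3b windows and sparse in those of Atg9b and Ambra1. Ulk2 and Ambra1 are the ends of the CG range of the higher genes, so the contrast between them comes from that choice. The other genes past 1.5-fold held 15 CG (Atg12), 28 (Atg16l1), 14 (Pik3c3) and 12 (Atg14). Over the 34 promoters the CG count ran from 2 to 34 with a median of 17, and the median over 6564 promoters of tested genes was also 17. Across the 32 tested autophagy genes with a promoter, the CG count and the difference had a Spearman correlation of 0.09 and a Pearson correlation of 0.18; this is across genes of the same 2 arrays and is a description only. No methylation was measured.

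**Figure D1:**
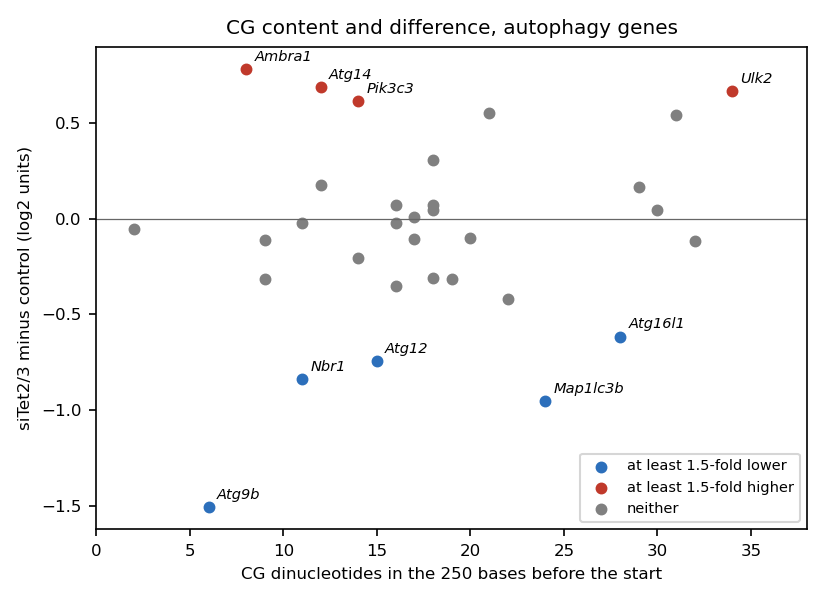
Each point is 1 of 32 tested autophagy genes, placed by the number of CG dinucleotides in the 250 bases before its RefSeq start (horizontal axis) and by its difference in log2 units, siTet2/3 minus control (vertical axis). Genes at least 1.5-fold lower (blue) span 6 to 28 CG and genes at least 1.5-fold higher (red) span 8 to 34, so the colours overlap along the horizontal axis.

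The same windows were searched for the letters CACGTG, the E-box core, for the longer CLEAR palindrome that contains it and is known as the binding element of TFEB, and for TGANTCA, the AP-1 element. All 3 read the same on both strands. CACGTG was found in 2 of 34 autophagy promoters (5.88%), those of Atg5 and Atg3, against 5.59% of all 33469 promoters in the table and 8.84% of those of tested genes. The CLEAR palindrome was in 0 of 34, and in 0.20% of all promoters and 0.594% of those of tested genes. At shares this low, 0 of 34 does not set the autophagy genes apart. TGANTCA was in 2 of 34 (5.88%), near its share of 6.34% of all promoters and 4.74% of those of tested genes. The 2 were those of Map1lc3b and Atg9b, the genes with the largest differences downward. That pairing was noticed in these data and was not tested. A match is a run of letters, not a measured binding site.

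**Figure D2:**
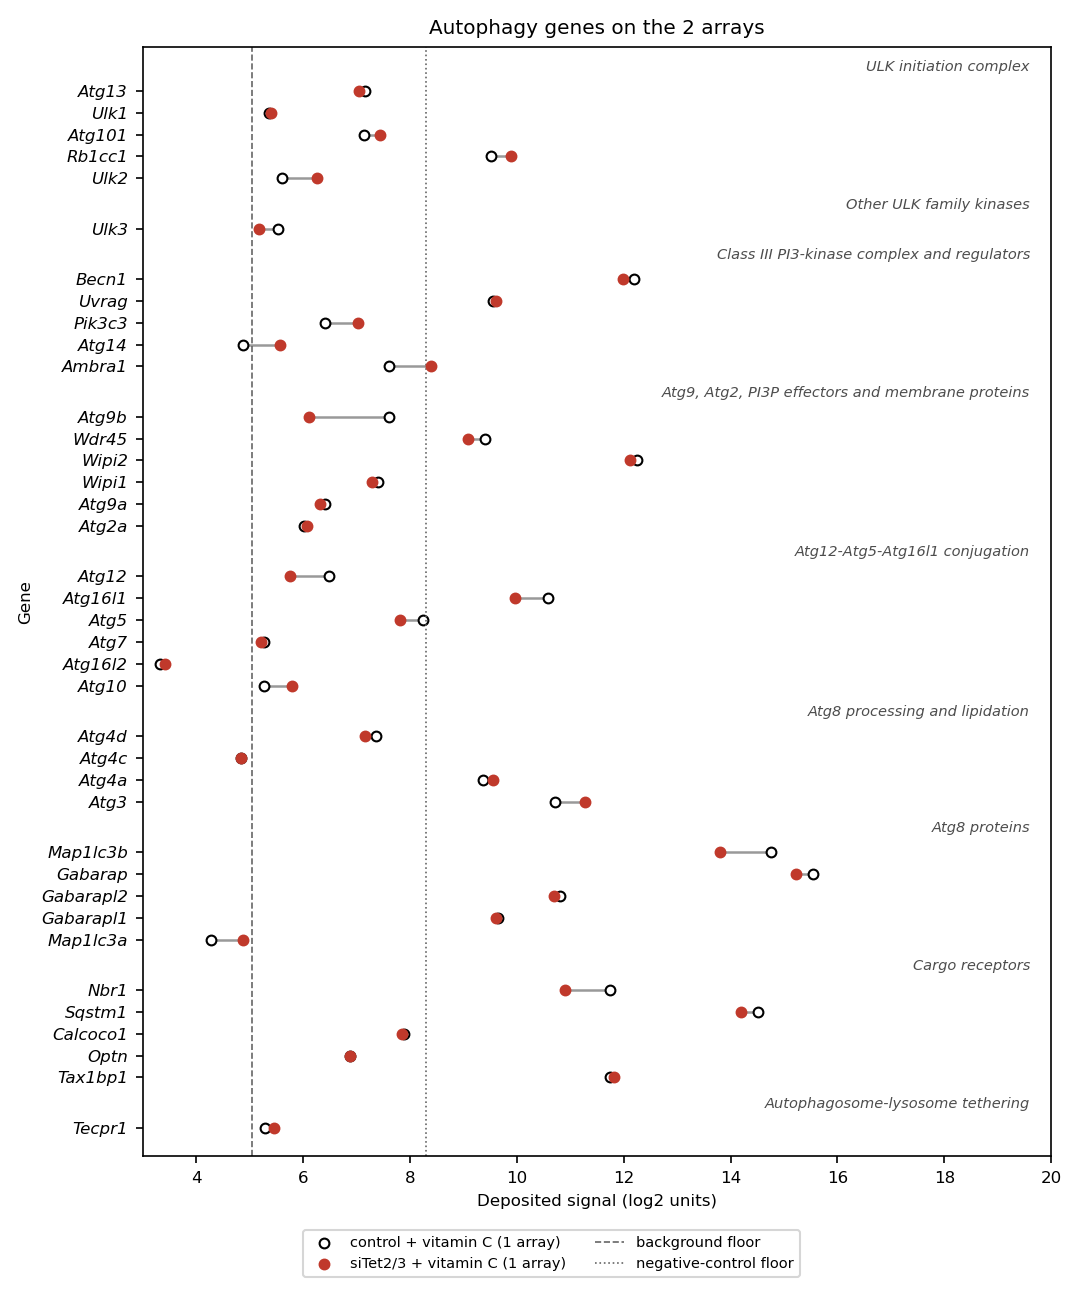
Deposited log2 signal of each of the 38 autophagy genes on the control array (open circles) and the siTet2/3 array (red), ordered by step of the pathway; the dashed line is the background floor at 5.04 and the dotted line the negative-control floor at 8.31 log2 units. Map1lc3b and Nbr1 show wide gaps at high signal, whereas Ulk2, Atg14 and Pik3c3 lie left of the dotted line on both arrays.

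The initiating steps held all 4 of the higher genes. Of the 5 genes of the ULK complex, Ulk2, 1 of the 2 interchangeable kinase subunits, gave 5.60 log2 units in the control culture and 6.27 in the siTet2/3 culture, a 1.59-fold difference. Its partner kinase gene Ulk1, close to the floor, read 5.37 and 5.41 and so differed by 0.05. Rb1cc1, which encodes the scaffold FIP200, read 9.51 and 9.89 (a difference of 0.38), and Atg101, which stabilises the complex, 7.14 and 7.44. Atg13, the adaptor between kinase and scaffold, differed by -0.11. The group had 1 gene higher, 0 lower and 4 neither, with a median of 0.30. Ulk3, a relative also known from Hedgehog signalling, stood the other way at 5.53 and 5.18 log2 units.

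The class III PI3-kinase group had 3 of 5 genes higher and 0 lower, where 7.53% of all tested genes were higher, with a group median of 0.61. The median was 0.33 where both values had to pass the floor, which leaves out Atg14, or where the floor was 1 log2 unit higher. Ambra1, a regulator that links Beclin 1 to the ULK complex, gave 7.62 log2 units in the control culture and 8.40 in the siTet2/3 culture. At 1.72-fold higher it had the largest upward difference of the 35 genes, and 271 of the 7780 tested genes had a larger one. Atg14, which directs the PI3-kinase to the site of autophagosome formation, read 4.88 and 5.57; the control value lay under the floor, so its 1.61-fold difference is bounded only as at least 1.44-fold. Pik3c3, the catalytic subunit Vps34, read 6.41 and 7.03, a 1.53-fold difference. These 3 higher genes had mean values under the negative-control floor of 8.31 log2 units. The subunits at higher signal on these arrays did not follow. Becn1, the core subunit Beclin 1, read 12.19 and 11.99, and Uvrag, the alternative to Atg14 in the endosomal form of the complex, 9.56 and 9.61.

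Among all tested genes 7.53% were higher and 12.7% lower. Taken over both initiating groups, 4 of 10 genes were higher and 0 lower. Of the 25 genes of all other groups 0 were higher and 5 lower. This division was noticed in these data and was not tested. It was less clean under other scalings: after centring on the median difference of all tested genes, or after detrending (subtracting a smooth trend of the difference on signal level), 2 of the 25 (Atg3 and Atg10) were higher and 4 lower. It also rests on dim signals. All 4 higher genes, and Atg9b and Atg12 of the 5 lower ones, had mean values under 8.31 log2 units, the 95th percentile of 1153 negative-control probes. With that as the floor, 15 autophagy genes remained: 3 were lower (Map1lc3b, Nbr1 and Atg16l1) and 0 higher, where 10.2% of all 3925 genes were lower and 5.38% higher. Only 3 genes of the initiating groups were among the 15, so this floor cannot show whether the division holds.

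**Figure D3:**
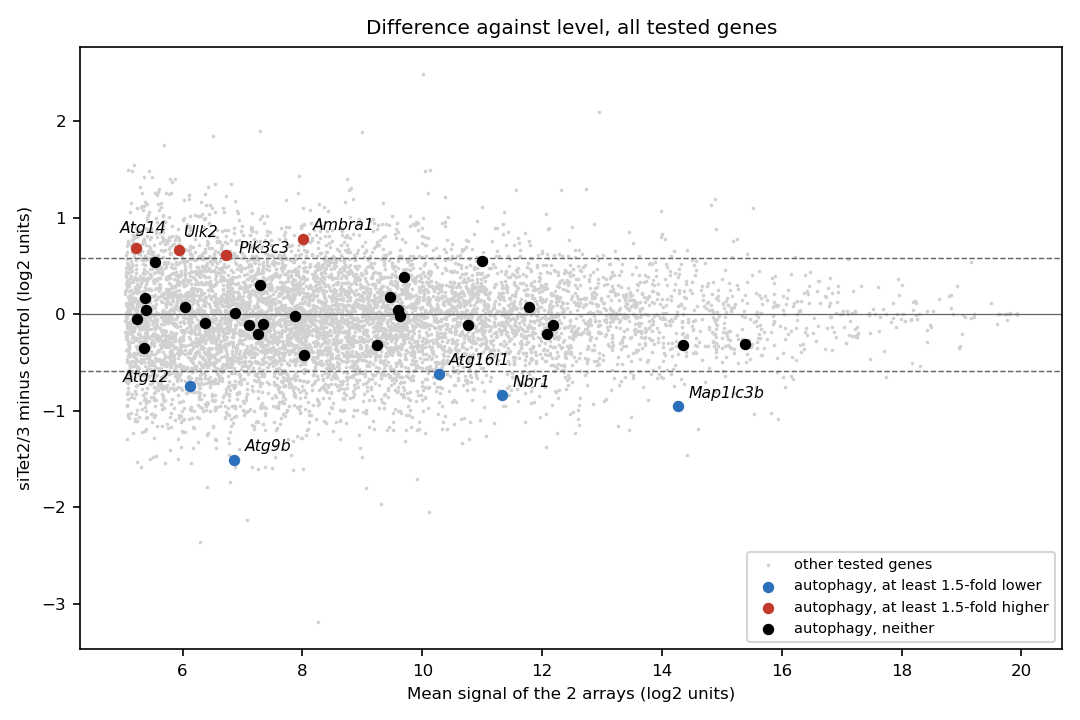
Difference in log2 units (siTet2/3 minus control) against the mean signal of both arrays for the 7780 tested genes; autophagy genes are blue (at least 1.5-fold lower), red (at least 1.5-fold higher) or black (neither), other genes grey, and dashed lines mark 1.5-fold. Map1lc3b stands at the lower edge of the grey cloud at high signal, Atg9b at its lower edge at low signal, and the 4 red genes lie among grey points of the same level at the left.

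Among the membrane suppliers, 1 of 6 genes was lower and 0 higher, with a median of -0.11. Atg9b, which encodes a scramblase of the vesicles that seed the autophagosome, gave 7.62 log2 units in the control culture and 6.11 in the siTet2/3 culture. It was 2.84-fold lower, the largest difference of all autophagy genes, and 20 of the 7780 tested genes had a larger one downward. Both values lay under the negative-control floor of 8.31, so with that floor Atg9b is not tested and its call is lost. Its widely expressed paralog Atg9a read 6.42 and 6.33, a difference of -0.09, also under the negative-control floor on both arrays. The contrast of the paralogs thus rests on dim signals. In RefSeq the Atg9b gene overlaps Nos3 and a long non-coding RNA gene; Nos3, which encodes endothelial nitric oxide synthase, read 4.51 and 3.85 log2 units, under the floor on both arrays. Wdr45, a PI3P-binding protein of the WIPI family, was 1.25-fold lower at 9.41 and 9.09. Wipi2, which recruits Atg16l1 to PI3P, read 12.24 and 12.13, and its relative Wipi1 differed by -0.10. The lipid transfer gene Atg2a differed by 0.07.

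In the Atg12-Atg5-Atg16l1 arm, which forms the complex that places Atg8 proteins on the membrane, 2 of 5 genes were lower and 0 higher, with a median of -0.42. With no floor, which adds Atg16l2, the median was -0.24. Among all tested genes 12.7% were lower and 7.53% higher. Within the arm, all 3 structural components stood lower on the siTet2/3 array, as did 4318 of the 7780 tested genes. Atg12, the ubiquitin-like modifier, read 6.50 and 5.75 log2 units (1.68-fold lower). Atg16l1, the membrane-targeting subunit, read 10.58 and 9.97 (1.53-fold lower); after centring or detrending it was 1.47-fold lower, short of 1.5-fold. Atg5, to which Atg12 is joined, read 8.24 and 7.82 (1.34-fold lower) and was not called. No enzyme of the arm was called on the deposited scale. Atg7, the activating enzyme, read 5.26 and 5.21, and Atg10, the conjugating enzyme, 5.26 and 5.80 (1.45-fold higher, and 1.51-fold after centring). Atg12, Atg5, Atg7 and Atg10 lay under the negative-control floor on both arrays, and Atg7 was close to the background floor. A contrast between structural components and enzymes would thus rest on dim signals.

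The genes that process and attach Atg8 had no call among 3 tested. Atg3, the conjugating enzyme that transfers Atg8 to lipid, gave 10.72 log2 units in the control culture and 11.27 in the siTet2/3 culture, 1.47-fold higher and 1.52-fold after centring or detrending. Of the proteases that trim Atg8 before and free it after conjugation, Atg4a differed by 0.18 and Atg4d by -0.20.

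All 4 tested Atg8 genes had lower values on the siTet2/3 array, with a median of -0.21, but the sizes were unequal and 1 of the 4 was called. Among all 7780 tested genes, 4318 had lower values on that array. With no floor, which adds Map1lc3a, the median was -0.11. Map1lc3b, which encodes LC3B, the most used marker of autophagosomes, read 14.75 and 13.80 log2 units, a 1.93-fold difference. At that level genes varied little: the robust SD of the differences was 0.33 log2 units, and Map1lc3b stood 2.92 of these SDs from 0. Gabarap read 15.54 and 15.23 (1.24-fold lower), Gabarapl2 10.81 and 10.70, and Gabarapl1 9.64 and 9.62. After centring, Gabarapl1 stood at 0.03, so its direction depended on the scaling, while the other 3 kept theirs. RefSeq names 2 pseudogenes of Map1lc3b, 3 of Gabarap and 3 of Gabarapl2. Near-identical copies can share probes, so signals of these 3 genes are uncertain to that extent. Map1lc3a lay under the floor on both arrays, and no fold is given.

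The cargo receptors had 1 of 5 genes lower and 0 higher, with a median of -0.02. Nbr1, a receptor for ubiquitin-tagged aggregates and peroxisomes, gave 11.75 log2 units in the control culture and 10.91 in the siTet2/3 culture (1.79-fold lower), 2.42 local SDs from 0. Sqstm1, its better known partner p62, read 14.51 and 14.19 (1.25-fold lower). The others differed by less than 0.1: Tax1bp1 read 11.74 and 11.82, Optn 6.88 and 6.89, and Calcoco1 7.88 and 7.86. Tecpr1, a tether between autophagosome and lysosome, differed by 0.16.

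Set against genes of the same level, 3 of the 35 genes lay more than 2 local robust SDs from 0 (Atg9b, Map1lc3b and Nbr1), and all 3 were lower. Among all tested genes 6.17% lay that far out in either direction. More than 3 local SDs were passed by Atg9b alone among the 35 (3.15), where 0.823% of all tested genes passed. These SDs describe the spread over genes on 2 arrays and are not replicate error.

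**Figure D4:**
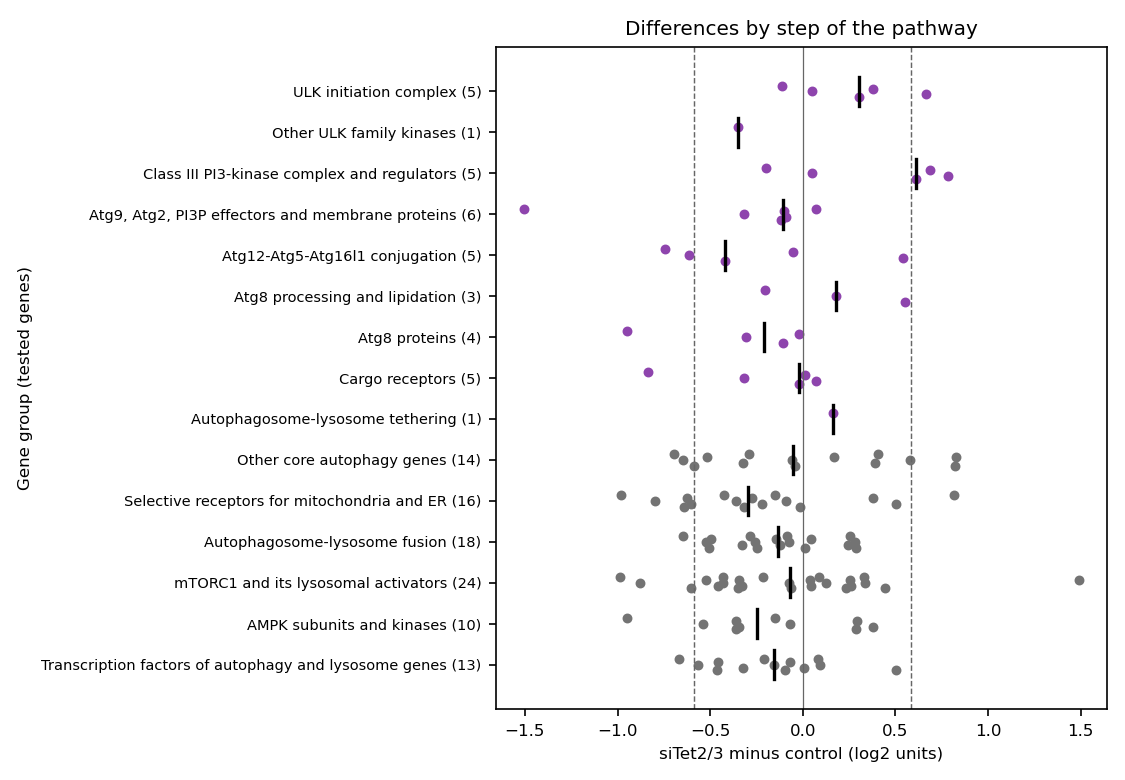
Each point is a tested gene, placed by its difference in log2 units (siTet2/3 minus control); purple rows are the steps of the autophagy machinery and grey rows are lists of its regulators and partners, with the number of genes in brackets, the median as a black bar and 1.5-fold as dashed lines. The medians of the ULK and PI3-kinase rows lie right of 0 and that of the conjugation row left of 0, and Sesn3 is the point furthest right among the mTORC1 genes.

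Other genes of the pathway, from lists of regulators, partners and selective receptors, gave 14 lower and 4 higher of 95 tested (14.7% and 4.21%), again near the shares over all genes, with a median of -0.15. With the negative-control floor 7 were lower and 3 higher; Wdfy3, Tbc1d25, Lamtor4 and Lamtor5 were among those no longer tested. Of 14 further core genes, Tmem41b, a lipid scramblase that works with Vmp1, was 1.78-fold higher (10.44 and 11.27 log2 units), and Tbc1d25, a Rab33b regulator, 1.77-fold higher. Wdfy3, which encodes the aggregate adaptor ALFY, was 1.62-fold lower, the secretory GTPase gene Rab1a 1.57-fold lower and Rab1b stood at -0.59 (15.31 and 14.72), the last not past 1.5-fold after centring.

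Receptors that select mitochondria, endoplasmic reticulum and other cargo included 5 lower and 1 higher of 16, with a median of -0.30, where 12.7% of all tested genes were lower and 7.53% higher. Of the 5, Tex264, Fundc1, Bnip3 and Nufip1 lay under the negative-control floor on both arrays, and Ncoa4 was the one still lower with that floor. The receptor gene for endoplasmic reticulum Tex264 was 1.98-fold lower (7.61 and 6.63 log2 units), the mitochondrial receptor gene Fundc1 1.74-fold and the ferritin receptor gene Ncoa4 1.56-fold lower (12.01 and 11.37). Bnip3 (1.52-fold) and Nufip1 (1.54-fold) completed the lower genes, and neither passed 1.5-fold after centring. Ccpg1, another receptor for endoplasmic reticulum, was 1.76-fold higher (9.59 and 10.40). The receptors of this organelle thus differed in direction. Of 18 fusion genes, Ykt6, a SNARE, was 1.57-fold lower (not past 1.5-fold after detrending) and 0 were higher; Stx17, the autophagosomal SNARE, differed by -0.51 and Rab7a by -0.33.

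Upstream, the mTORC1 list, whose complex holds autophagy back when amino acids are plentiful, had 3 lower and 1 higher of 24. Sesn3, a sestrin that restrains mTORC1, was 2.81-fold higher (9.38 and 10.87 log2 units), a larger difference than that of any tested autophagy gene in that direction. Sesn2, another sestrin, differed by -0.33 (13.57 and 13.24). The Ragulator genes Lamtor5 and Lamtor4, whose proteins hold mTORC1 on the lysosome, were 1.98-fold (7.03 and 6.04) and 1.84-fold lower (8.69 and 7.81). Lamtor3 differed by -0.35 (9.62 and 9.27) and was not called, and Lamtor1 and Lamtor2 differed by 0.04 and 0.12. Lamtor5, Lamtor1 and Lamtor2 lay under the negative-control floor on both arrays. Fnip1 was 1.52-fold lower, but not past 1.5-fold after centring. Mtor itself read 6.24 and 6.69 and Rptor 7.14 and 6.68, also under the negative-control floor. Of 10 genes of AMPK, the energy sensor that activates ULK1, and its kinases, Strada was 1.93-fold lower (10.24 and 9.30) and the catalytic subunit gene Prkaa1 differed by -0.07. Of 13 transcription factor genes, Ddit3 was 1.59-fold lower. Tfeb, the master regulator of lysosomal and autophagy genes, read 5.95 on both arrays, under the negative-control floor. Foxo3 differed by -0.57 and Foxo1 by 0.50.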

How the data were processed

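RNA from 1 control and 1 siTet2/3 culture was hybridised to 1 whole-transcript array each. The deposited table holds log2 signals per probe set; the submitters' processing notes name RMA (background correction, quantile normalisation and summary) and the Transcriptome Analysis Console. For tool versions, settings and genome build, none of the sources read for this text gives a value. The columns had medians of 4.85 and 4.90. Quantile normalisation removes differences in total RNA. Values end at 19.93 log2 units, above the usual range of RMA, so folds are those of the deposited scale.

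Of 24834 rows, 15049 had 1 gene symbol in the platform annotation, covering 15037 genes; probes of 1 gene were averaged (10 genes, none of them autophagy genes). All 38 symbols matched RefSeq (GRCr8). Genes were tested where the mean of both values passed the 95th percentile of the higher value over chemoreceptor genes. Local SDs are scaled median absolute deviations in 20 bins of mean level. Python 3.11.15, pandas 2.3.3 and statsmodels 0.14.6 (lowess, span 0.3) were used, and the procedure was tested on simulated data. The members, lists and limits were chosen with earlier results of these data known. All members could be named; of the other lists, up to 3 genes per direction past 1.5-fold, or the gene of largest difference, were named, and further ones were chosen after their values were seen. Alternatives were other floors, scalings, fold limits and probe rules. Protein sequences were not used here.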

Additional observations from a re-analysis of the deposited data

How the results depend on the processing

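No alternative turned the direction of a called autophagy gene, but such a turn could not occur. Fold limits and floors that choose genes leave a difference unchanged, and raising values to the floor can only shrink it. Centring and detrending moved differences by much less than 1.5-fold. With the floor from negative-control probes 3 autophagy genes were lower and 0 higher, and 7 of the other pathway genes were lower. With the floor 1 log2 unit higher 2 autophagy genes were higher. With a 2-fold limit 1 was lower and 0 higher (other pathway genes 0 and 1; all tested genes 2.78% and 1.32%), with 3 local robust SDs also 1 and 0 (0 and 1; all tested genes 0.553% and 0.27%), and with a 1.3-fold limit 6 were lower and 7 higher (other pathway genes 27 lower and 11 higher; all tested genes 23.5% and 15.9%). After detrending 9 other pathway genes were lower. The median of the PI3-kinase group was 0.33 with the floor on both values or raised by 1 log2 unit. With no floor the medians were -0.24 for the conjugation arm and -0.11 for the Atg8 genes. Atg14 was not past 1.5-fold with values raised to the floor (0.53 log2 units). Stricter floors tested fewer autophagy genes, 28 with the floor 1 log2 unit higher and 15 with the negative-control floor. With the latter 20% of them were lower and 0% higher, against 10.2% and 5.38% of all genes. Ambra1, Pik3c3, Ulk2, Atg14, Atg9b and Atg12 had mean values under the negative-control floor, so that floor leaves them out of the counts. The floor on the higher value tested the same 35 autophagy genes, and each had 1 probe set. Neither this floor nor the brightest probe per gene could therefore change their counts. No paired analysis was possible because each group had 1 array. Background noise limits the dim genes: 28.9% of the chemoreceptor genes differed by at least 1.5-fold.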
